A study of Homo sapiens with 76 samples.

Results

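The replication clamp and DNA repair genes described here are 9 genes picked by name: PCNA, FEN1, RFC2, RPA1, RPA2, RPA3, UNG, MSH6 and USP1. All 9 had a row among the 17513 gene rows of the table, and all 9 were described over the same 76 cells. The cells are HEK293, an established human embryonic kidney line, grown in DMEM with fetal calf serum and given no treatment. Each was captured in a microfluidic chamber and sequenced with a unique molecular identifier (UMI), a random tag at the 5' end of the cDNA that lets copies of 1 molecule be counted once. The labels name 1 group and no separate cultures, so the cells form 1 sample, the SDs are spreads between cells, and no test between groups was possible.

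The proteins of these genes meet at the replication fork. PCNA is a ring that slides along DNA and tethers polymerases, and RFC2 is a subunit of the replication factor C complex that opens the ring and loads it. RPA1, RPA2 and RPA3 are the large, middle and small subunits of replication protein A, the trimer that coats single-stranded DNA. FEN1 cuts the flaps left at the ends of Okazaki fragments, UNG removes uracil from DNA, and MSH6 belongs to a complex that recognises mismatched bases. USP1 is a deubiquitinase that takes ubiquitin off PCNA and off the Fanconi anaemia protein FANCD2. In dividing cells many genes of this kind are transcribed most at the entry to S phase, in part through E2F transcription factors.

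Promoter windows are shown for 5 of the genes because the cells ordered the genes by how closely they followed other S phase transcripts, and the windows let a reader set that order beside the letters at the start sites. They are RefSeq sequences of build GRCh38.p14, each from 250 bases before to 50 bases after an annotated start, and 7 of the 9 genes were matched by symbol; RPA2 and RPA3 were not. Capitals mark the words TTTCCCGC, TTTGGCGC, TTTGCCGC and TTTCGCGC, forms of the E2F motif, searched on both strands. The PCNA window is chr20:5126573-5126872 on the minus strand, UNG is chr12:109097922-109098221 on the plus strand, MSH6 is chr2:47782895-47783194 on the plus strand, USP1 is chr1:62436145-62436444 on the plus strand and RFC2 is chr7:74254350-74254649 on the minus strand.
PCNA: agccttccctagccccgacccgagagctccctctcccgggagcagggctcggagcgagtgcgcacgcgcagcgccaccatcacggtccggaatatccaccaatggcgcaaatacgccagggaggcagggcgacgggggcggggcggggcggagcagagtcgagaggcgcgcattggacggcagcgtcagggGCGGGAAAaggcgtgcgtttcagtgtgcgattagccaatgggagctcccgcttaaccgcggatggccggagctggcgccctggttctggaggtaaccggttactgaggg
UNG: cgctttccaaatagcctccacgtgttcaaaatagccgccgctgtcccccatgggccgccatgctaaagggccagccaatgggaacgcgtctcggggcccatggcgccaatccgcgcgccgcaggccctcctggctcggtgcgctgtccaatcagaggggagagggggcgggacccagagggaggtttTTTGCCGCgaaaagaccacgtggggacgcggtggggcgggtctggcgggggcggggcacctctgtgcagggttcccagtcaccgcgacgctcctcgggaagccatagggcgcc
MSH6: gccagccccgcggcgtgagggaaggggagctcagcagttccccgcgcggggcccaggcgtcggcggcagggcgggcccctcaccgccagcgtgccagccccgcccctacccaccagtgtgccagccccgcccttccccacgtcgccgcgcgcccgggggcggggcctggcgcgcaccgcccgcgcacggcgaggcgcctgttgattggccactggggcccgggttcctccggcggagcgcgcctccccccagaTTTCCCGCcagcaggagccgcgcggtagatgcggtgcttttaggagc
USP1: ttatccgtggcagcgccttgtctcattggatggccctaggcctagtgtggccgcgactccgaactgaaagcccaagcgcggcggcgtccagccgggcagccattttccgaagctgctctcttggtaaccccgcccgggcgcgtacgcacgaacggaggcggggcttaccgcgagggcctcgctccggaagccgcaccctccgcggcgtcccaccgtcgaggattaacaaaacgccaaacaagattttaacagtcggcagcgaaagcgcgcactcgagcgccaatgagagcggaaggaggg
RFC2: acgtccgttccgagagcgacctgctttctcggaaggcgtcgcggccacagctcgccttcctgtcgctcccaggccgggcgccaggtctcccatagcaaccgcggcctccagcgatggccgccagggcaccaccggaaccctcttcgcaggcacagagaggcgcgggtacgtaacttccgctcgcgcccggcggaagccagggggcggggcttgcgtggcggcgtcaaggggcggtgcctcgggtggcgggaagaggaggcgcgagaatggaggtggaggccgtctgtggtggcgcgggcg

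An E2F word stood in a window of 3 of the 7 matched genes, PCNA, UNG and MSH6, against 3.99% of the 27305 genes with a window. Counted by window it was 3 of 13, against 3.31% of 35116, as MSH6 had 4 windows, PCNA, UNG and USP1 had 2 each and the other genes 1 each. The windows shown for PCNA, UNG and MSH6 are the ones that hold the word, and their other windows, not shown, do not hold it. In the PCNA window the word was on the strand opposite to the gene. Counted from 1 at the 5' end of the window, the word began at base 192 in PCNA and at base 188 in UNG, both before the start site, and at base 254 in MSH6, after it. The gene counts do not separate transcripts that start at different windows. The windows of USP1, RFC2, RPA1 and FEN1 did not hold these letters. The pentamer CCAAT, searched on both strands and sharing no base with the E2F words found, was in a window of 5 of the 7 genes (all but RFC2 and FEN1) against 39.7% of all genes. A match is a description of letters and not a measured binding site.

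Depth per cell ranged from 7305 to 43392 UMIs over the gene rows, with a median of 20966, and 16918 of the gene rows were above 0 somewhere. The column of each cell was distinct, and 0 cells repeated another. Of the marker genes listed for HEK293 cells, all 6 were seen, with UCHL1 and VIM each in 70 of 76 cells, NEFM in 49, KRT18 in 45, NEFL in 26 and KRT8 in 19. Of the markers listed for other cell types, the blood gene HBA1 had a UMI in 5 cells, the fibroblast collagen genes COL1A1 and COL3A1 in 8 and 1, the liver gene APOA1 in 1 and the liver gene FGG in 0, which allows a share of cells with a UMI of up to 3.95% and sets no limit on cells that express it. There was no second cell type in which to read a background for the 9 genes themselves.

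Together the 9 genes gave 3213 UMIs, or 0.185% ± 0.0614 of a cell's UMIs (SD, n = 76 cells), from 0.0604% to 0.344%. A cell held 5 to 138 of these UMIs with a median of 40. The 3 RPA genes made up 54.1% of them and PCNA a further 15.0%. A median of 7 of the 9 genes was seen per cell. All 9 were seen in 17 cells, 8 in 15 cells, 7 in 20 cells, 6 in 14 cells, 5 in 6 cells, 4 in 3 cells and 3 in 1 cell. As every UMI marks the 5' end of 1 cDNA molecule, counts are given per molecule and are not divided by transcript length. A longer transcript must still be copied further to reach its 5' end, and how far that lowers the counts of long genes was not tested; coding transcripts of PCNA in GENCODE 29 have 1344 to 1359 bases, and the longest of MSH6 has 7476.

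**Figure D1:**
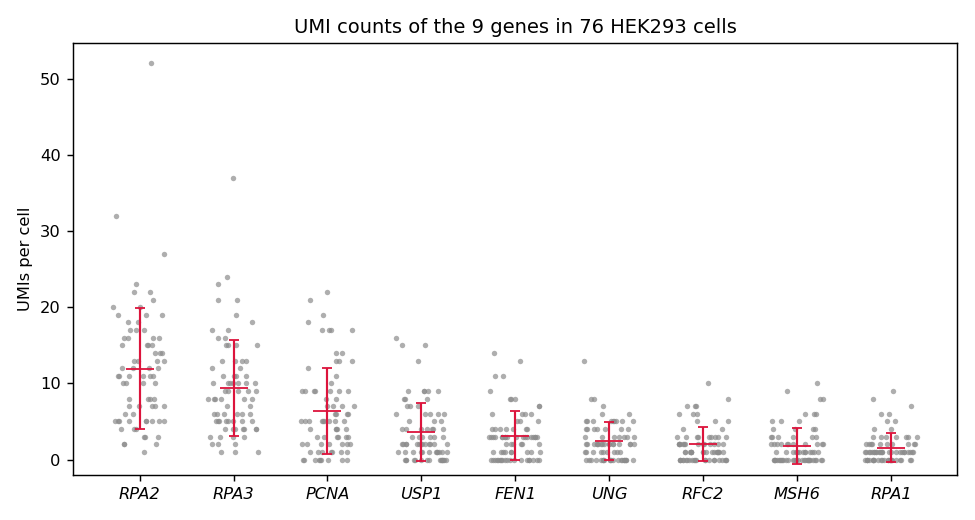
UMIs per cell (vertical axis) for each of the 9 genes (horizontal axis, in order of mean), 1 grey point per cell and 76 cells per gene; the red bar is the mean with 1 SD on each side. RPA2 and RPA3 have no cell at 0, and the highest point of both, 52 and 37 UMIs, belongs to the same cell.

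The single-strand binding genes showed very unequal counts for 3 subunits of 1 complex. RPA2 had a lowest count of 1 UMI, a median of 11 and a highest of 52, with a mean of 11.9 ± 7.95 (SD, n = 76 cells), and was seen in 76 of 76 cells (100%, exact Clopper-Pearson 95% interval from 95.3%). RPA3 had 1, 8 and 37 UMIs as its lowest, median and highest counts, with a mean of 9.36 ± 6.32, and was also seen in every cell. RPA1 had 0, 1 and 9 UMIs, with a mean of 1.58 ± 1.95, and was seen in 51 cells (67.1%, 55.4% to 77.5%). The RPA2 sum was 7.56 times and the RPA3 sum 5.93 times the RPA1 sum. Annotated coding transcripts have 577 to 4340 bases for RPA1, 554 to 1752 for RPA2 and 414 to 2020 for RPA3. How far transcript length contributes to these ratios was not tested, so they describe counts and not subunit mRNA levels. Within single cells RPA2 exceeded RPA1 in 75 of 76 cells and equalled it in 1, and RPA3 exceeded RPA1 in 72 of 76.

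RPA2 and RPA3 lay closer together, with overlapping spreads. RPA2 was higher than RPA3 in 46 cells, equal in 8 and lower in 22, and the ratio of their sums was 1.28. The cell numbered 50 in the titles held the highest count of both genes and of MSH6, and it was deep, with 42334 UMIs. As a share of UMIs it was still the highest cell for RPA2 (0.123%), while the highest share of RPA3 (0.0928%) was in cell 82. Whether a chamber held more than 1 cell was not tested.

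The clamp gene PCNA had more UMIs than the loader subunit gene RFC2. PCNA had a lowest count of 0, a median of 5 and a highest of 22 UMIs, with a mean of 6.36 ± 5.64, and was seen in 67 cells (88.2%, 78.7% to 94.4%). RFC2 had 0, 1 and 10 UMIs, with a mean of 2.01 ± 2.23, and was seen in 54 cells (71.1%, 59.5% to 80.9%). PCNA thus gave 3.16 times the UMIs of RFC2, and the intervals for the cells seen overlap between these genes. FEN1, which acts on the fork behind the clamp, had 0, 3 and 14 UMIs with a mean of 3.13 ± 3.18 in 57 cells (75%, 63.7% to 84.2%). In GENCODE 29 FEN1 overlaps TMEM258 on the opposite strand, which had 1573 UMIs here. Whether the counting used strand is not given in the sources used here, so counts of FEN1 and TMEM258 may not be fully separate. The other overlapping rows were small, with 20 UMIs for RPA3-AS1 over RPA3, 16 for SMYD4 over RPA1 and 14 for FBXO11 over MSH6. FADS2, with 14 UMIs, overlaps FEN1 on the same strand. PCNA, FEN1, RPA2 and UNG have pseudogene copies in GENCODE 29, and how reads shared with those were counted is not known, so their counts carry that uncertainty.

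The repair genes and the deubiquitinase had low counts with long upper ends. USP1 had a lowest count of 0, a median of 2 and a highest of 16 UMIs, with a mean of 3.66 ± 3.81, and was seen in 61 cells (80.3%, 69.5% to 88.5%). UNG had 0, 2 and 13 UMIs, with a mean of 2.43 ± 2.43, in 55 cells (72.4%, 60.9% to 82.01%). MSH6 had 0, 1 and 10 UMIs, with a mean of 1.82 ± 2.36, in 45 cells (59.2%, 47.3% to 70.4%). MSH6 was the gene missed most often, with 31 cells at 0, and it was missed more often than RPA1 although its mean was higher; the intervals of the 2 genes overlap.

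In order of mean the genes ran RPA2, RPA3, PCNA, USP1, FEN1, UNG, RFC2, MSH6 and RPA1, and every pair of neighbours in that order differed by less than 1 SD of either gene. By mean share of UMIs RPA2 ranked 265th, RPA3 331st and PCNA 514th of the 16918 genes seen, and RPA1, the lowest, ranked 2094th. All 9 were seen in at least 50% of the cells, against 16.7% of all gene rows. Thinned to 10940 UMIs in the 71 cells deep enough (5 left out), the mean share of cells with a UMI was 99.4% for RPA2, 97.0% for RPA3, 84.1% for PCNA, 69.01% for USP1, 65.9% for FEN1, 59.3% for UNG, 54.1% for RFC2, 45.8% for MSH6 and 44.4% for RPA1. At that depth MSH6 and RPA1 were seen in fewer than 50% of the cells.

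Spike-in RNA gave a sense of absolute number. The protocol states 20000 spike-in molecules per cell, of which a median of 10.99% was counted. If cellular RNA was captured like the spike-ins, a cell held an estimated 105 ± 64.9 molecules of RPA2, 82.97 ± 53.03 of RPA3, 55.5 ± 48.2 of PCNA and 31.96 ± 31.2 of USP1. The same estimate was 27.8 ± 27.8 for FEN1, 21.5 ± 20.9 for UNG, 18.1 ± 19.7 for RFC2, 16.2 ± 20.5 for MSH6 and 13.6 ± 15.97 for RPA1. These numbers rest on the nominal spike-in amount.

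PCNA had the highest Pearson dispersion of the 9 genes. Its Pearson dispersion, the squared deviation from the count expected at the cell's depth divided by that expectation, was 3.34, where counting noise alone gives 1. The 36 spike-in RNAs with a mean of at least 1 UMI, which were added equally to each chamber, had dispersions from 0.930 to 2.20 with a median of 1.53. The genes above the highest spike-in were PCNA, RPA2 (2.55), USP1 (2.39), MSH6 (2.37) and, at the limit, RPA3 (2.21), a count of 5 of 9 against 21.6% of the 2810 genes with a mean of at least 1 UMI. FEN1 (2.10), RFC2 (1.96), UNG (1.78) and RPA1 (1.41) lay within the spike-in range. RPA1 lay below the spike-in median, so its cell-to-cell spread was not separable from technical spread at this depth. Dispersion rises with the mean count at a given relative spread, so it does not rank the relative spread of these genes. The SD as a percent of the mean count, which includes counting noise, was highest for MSH6 (129.9%) and was 88.8% for PCNA.

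The count above the spike-ins changed with depth and with single cells. Thinned to 10940 UMIs only PCNA (2.65) stayed above the highest thinned spike-in, which was at 1.98. With each gene's highest cell left out PCNA (3.34) and MSH6 (2.34) stayed above 2.20, while RPA2 dropped to 2.13, USP1 to 2.06 and RPA3 to 2.01. For RPA2 and RPA3 the cell left out was cell 50, and for USP1 it was cell 66. The share of all genes above the highest spike-in was not computed thinned or with highest cells left out. Whether these genes dropped more than genes in general was therefore not tested.

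**Figure D2:**
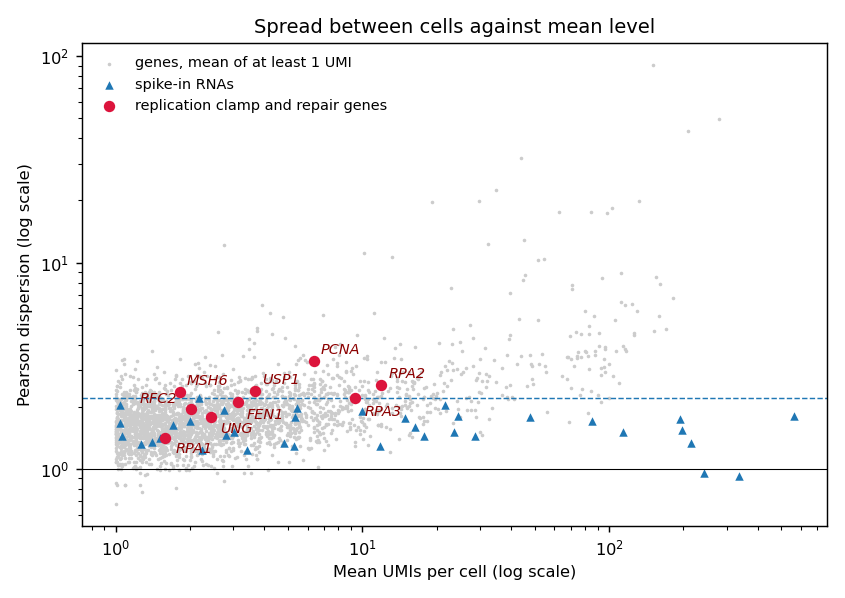
Pearson dispersion over 76 cells (vertical log axis) against mean UMIs per cell (horizontal log axis) for genes with a mean of at least 1 UMI (grey), spike-in RNAs (blue triangles) and the 9 genes (red); the black line marks 1, the value of counting noise, and the dashed line the highest spike-in at 2.20. PCNA stands highest of the 9 at 3.34 and RPA1 lowest at 1.41.

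The 9 genes differed in how closely they followed other S phase transcripts. The S phase share is the summed percent of UMIs of 35 genes of licensing, nucleotide supply and replication-coupled chromatin (led by GMNN with 717 UMIs, MCM7 with 666 and MCM2 with 477), none of them among the 9, and it averaged 0.370% ± 0.123 over cells. Correlations given here are Spearman rho of shares over the 76 cells, which share 1 preparation and differ in depth, and they carry no p-value. USP1 had rho = 0.586 with the S phase share, PCNA 0.466, UNG 0.464 and MSH6 0.444. RPA1 (0.287) and FEN1 (0.271) lay just under 0.3, RPA2 had 0.233, RFC2 0.0429 and RPA3 -0.0368.

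Thus 4 of the 9 genes had rho of at least 0.3, against 4.34% of the 2787 genes with a mean of at least 1 UMI outside the S phase list, and the median was 0.287 for the 9 against 0.0440 for all of them. USP1 ranked highest of those 2787 genes, PCNA 6th, UNG 7th and MSH6 9th. The 9 genes and the lists were chosen with earlier results of these data known. Among those results was that USP1 and MSH6 go with S phase genes, so the count and ranks give no independent support. RPA3 and RFC2, at 1920th and 1401st, lay in the body of the distribution. RPA3 was the second most abundant of the 9 and was seen in every cell, and how count level affects these values was not tested. Scaling by spike-in totals, which lets a cell's RNA content into every value, moved the median of all genes to 0.324, and RPA3 was then at 0.346, close to that median, with USP1 at 0.731.

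**Figure D3:**
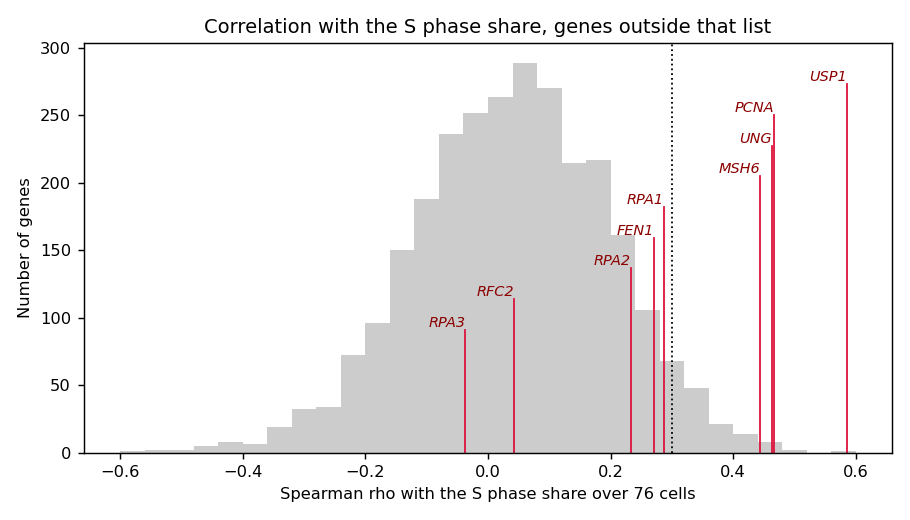
Number of genes (vertical axis) by Spearman rho with the S phase share over 76 cells (horizontal axis) for 2787 genes outside that list, with the 9 genes as red lines whose heights carry no value; the dotted line is 0.3. USP1 lies at 0.586 beyond the histogram's body, whereas RFC2 and RPA3 lie near its centre.

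No single cell decided the values of the 4 highest genes. With any 1 cell left out rho ranged from 0.572 to 0.624 for USP1, 0.445 to 0.506 for PCNA, 0.442 to 0.491 for UNG and 0.421 to 0.493 for MSH6. Without the 2 cells farthest from the median S phase share it was 0.575 for USP1, 0.425 for PCNA, 0.440 for UNG and 0.403 for MSH6. Pearson's r of the shares was 0.552 for USP1, 0.474 for PCNA, 0.478 for UNG and 0.458 for MSH6. Without the same 2 cells r was 0.545 for USP1, 0.374 for PCNA, 0.425 for UNG and 0.367 for MSH6. The cell with the highest S phase share, cell 16 at 0.663%, also had the highest share of PCNA (0.146%), UNG (0.0430%) and MSH6 (0.0430%), on a total of 11620 UMIs.

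Depth and composition moved with these genes. PCNA had rho = 0.310 with the cell's total UMIs and USP1 0.267. Against the share of ribosomal protein transcripts PCNA had rho = -0.516, USP1 -0.473, FEN1 -0.420, UNG -0.320 and MSH6 -0.302, while RPA2 (0.0174), RFC2 (0.0844) and RPA3 (0.168) did not go with it; the S phase share itself had -0.469. Given the ribosomal protein share, rho with the S phase share was 0.468 for USP1, 0.375 for UNG, 0.359 for MSH6 and 0.296 for PCNA, and 1.97% of all genes reached 0.3. Given the cell total it was 0.575 for USP1, 0.450 for PCNA, 0.457 for UNG and 0.433 for MSH6. Thinned to 10940 UMIs it was 0.488 for USP1, 0.396 for PCNA, 0.379 for UNG and 0.399 for MSH6. FEN1 changed sides of 0.3 with the setting, at 0.301 thinned, 0.324 with size factors, 0.379 without the 5 shallow cells and 0.0922 given the ribosomal protein share.

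**Figure D4:**
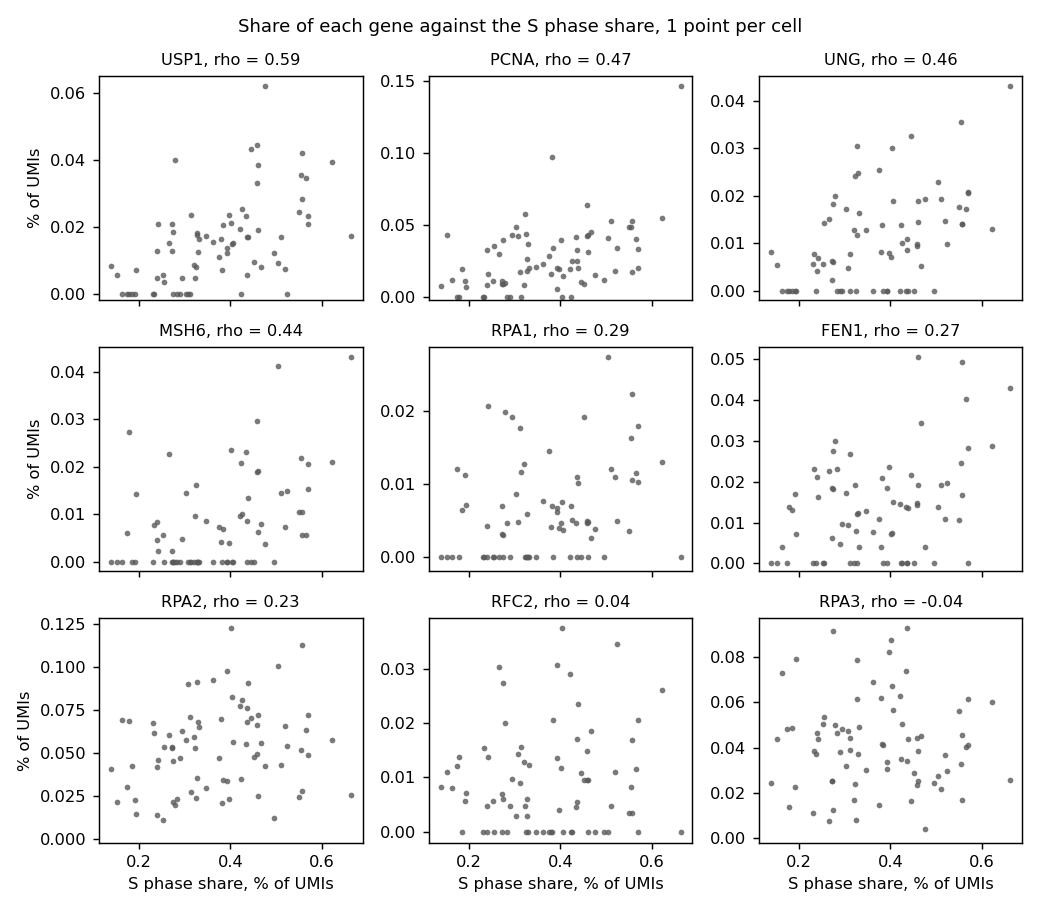
Share of each gene in percent of a cell's UMIs (vertical axes, each on its own scale) against the S phase share in percent of UMIs (horizontal axis), 1 point per cell and 76 cells per panel, with Spearman rho in each title. The points scatter widely in every panel, and rho runs from 0.586 for USP1 to -0.0368 for RPA3.

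The closest pairs among the 9 genes joined PCNA, USP1, UNG, MSH6 and FEN1. The 36 pairs among the 9 genes had a mean rho of 0.129, against 0.0140 over all pairs of genes with a mean of at least 1 UMI. PCNA with MSH6 had rho = 0.426, UNG with USP1 0.389 and PCNA with USP1 0.301, and these 3 of 36 pairs reached 0.3, against 1.16% of all pairs. PCNA with UNG (0.299) and FEN1 with UNG (0.296) lay just below. Of the 6 pairs below 0, 4 involved RPA3 and 2 involved RFC2 with PCNA or UNG. The RPA subunits, which act as 1 complex, had rho = 0.181 for RPA2 with RPA3, 0.0976 for RPA1 with RPA2 and 0.0764 for RPA1 with RPA3.

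**Figure D5:**
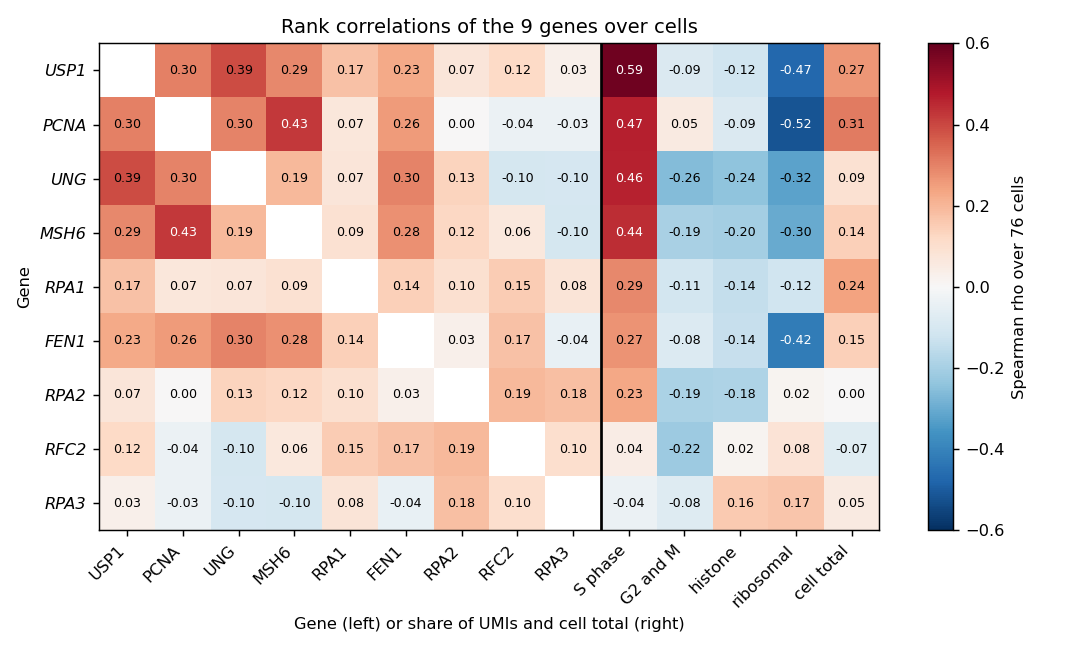
Spearman rho over 76 cells between the 9 genes (rows and left columns) and of each gene with the S phase, G2 and M phase, histone and ribosomal protein shares and the cell total (right of the line), coloured from blue (below 0) to red (above 0). The upper left block of USP1, PCNA, UNG and MSH6 spans 0.194 to 0.426, and the values of RPA3 with the other genes run from -0.105 to 0.181.

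The 9 genes were also set against the later cell cycle share and the histone share. The G2 and M phase share, summed over 39 genes led by KPNA2 (613 UMIs), CDK1 (601) and CKS2 (589), had rho = -0.250 with the summed share of the 9 genes, -0.0809 with size factors and, with the sign turned, 0.414 on the spike-in scale. Single genes ran from -0.262 for UNG and -0.216 for RFC2 to 0.0550 for PCNA, and 0 of 9 reached 0.3 in either direction, against 2.51% of all genes at 0.3 or higher and 2.12% at -0.3 or lower. Other settings moved single genes past 0.3 in size. UNG was at -0.307 with the abundant genes left out of the total, at -0.316 given the cell total and at -0.392 given the ribosomal protein share, where MSH6 was at -0.309. On the spike-in scale the signs of UNG (0.0690) and MSH6 (0.102) turned. PCNA (0.371), which was above 0 before, RPA2 (0.352) and RPA3 (0.386) passed 0.3 there. The share of all genes past 0.3 with the G2 and M phase share was not computed under these other settings. With the S phase share, 57% of genes outside that list reached 0.3 on the spike-in scale. The share of replication-dependent histone transcripts, which is nearly all HIST1H4C (11469 of 11984 UMIs, then HIST1H2BK with 94 and HIST1H1E with 72), had rho = -0.179 with the summed share and 0.0568 on the spike-in scale. UNG (-0.242) and MSH6 (-0.203) were lowest there and RPA3 (0.156) highest, and 0 of 9 reached 0.3 in size, against 1.96% of all genes. In this assay primed with oligo-dT, histone UMIs count only the molecules so primed.

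Partners of the 9 genes in their complexes and pathways were mostly rarer. KIAA0101, which encodes the PCNA-associated factor, came close to PCNA in level with 5.96 ± 5.73 UMIs in 69 cells and had rho = 0.383 with it. Among the other loader subunits RFC3 gave 3.53 ± 3.03 UMIs, RFC4 2.58 ± 2.38, RFC5 2.00 ± 1.99 and RFC1 1.68 ± 2.28, each within 1 SD of the RFC2 mean, and their rho with RFC2 ran from -0.146 (RFC3) to 0.144 (RFC1). The mismatch repair exonuclease gene EXO1 gave 71 UMIs in 36 cells and had rho = 0.311 with MSH6. WDR48, which activates USP1, gave only 45 UMIs and was seen in 22 cells, with rho = 0.311 to USP1. FANCD2, a substrate of USP1, gave 51 UMIs (rho = 0.232), and the ubiquitin-conjugating enzyme gene UBE2T gave 5.88 ± 5.18 UMIs (rho = 0.210). APEX1, which cuts the site that UNG leaves, gave 3.66 ± 2.92 UMIs and had rho = 0.312 with UNG. LIG1, which seals the nick behind FEN1, gave 1.07 ± 1.29 UMIs and had rho = 0.000799 with FEN1. Further pairs had rho below 0.3, at 0.180 for LIG1 with PCNA and 0.0927 for FANCI with USP1. With UNG, TDG had 0.137 and SMUG1 0.0253, and DNA2 had -0.00164 with FEN1. With so few counts these values describe the cells and order nothing.

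Genes of the wider pathways were counted by the same limit of 0.3 against the S phase share, which 4.34% of all genes reached, and with 0 or 1 such gene in lists this small the counts are given as a description only. Of the 12 genes of the clamp and loader list analysed here, led by KIAA0101 (453 UMIs), RFC3 (268) and RFC4 (196), 1 of 6 genes with a mean of at least 1 UMI had rho of at least 0.3, the PCNA unloader gene ATAD5 (0.327). Of the polymerase and Okazaki fragment list (POLD2 with 289 UMIs, POLE3 with 268, RNASEH2A with 260) it was 0 of 10. Of the RPA partners (TIPIN with 201, RPAIN with 184, TIMELESS with 86) it was 1 of 3, the fork protection gene TIPIN (0.470). Of base excision repair (PARP1 with 522, APEX1 with 278, TDG with 164) it was 1 of 5, PARP1 (0.315). Of the PCNA ubiquitin and Fanconi list (17 of 18 analysed here; UBE2N with 513, UBE2T with 447, HLTF with 193) it was 1 of 6, the PCNA ubiquitin ligase gene HLTF (0.317).

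The count was 0 of 8 genes for nucleotide excision repair (among them GTF2H5 with 535 UMIs and CETN2 with 172) and 0 of 4 for end joining (XRCC5 with 628, XRCC6 with 605, PRKDC with 440). The median rho with the S phase share was 0.222 for the clamp and loader list, 0.252 for base excision repair, 0.187 for the ubiquitin and Fanconi list, 0.178 for end joining, 0.103 for polymerases, 0.0708 for RPA partners and 0.0663 for nucleotide excision repair, beside the 0.0440 of all genes. All members analysed here of these lists had a UMI in at least 1 cell. The lists have few genes, and the differences between them were not tested.

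The genes most like each member were named as the 3 of highest rho among 2801 other genes with a mean of at least 1 UMI. For PCNA they were the histone chaperone gene RBBP4 (0.481), HNRNPR (0.471) and GPX4 (0.465). For USP1 they were BRD7 (0.527), HNRNPDL (0.525) and the maintenance methyltransferase gene DNMT1 (0.511). For UNG they were the helicase genes MCM2 (0.456) and MCM6 (0.427) and, between them, PBDC1 (0.454). For MSH6 they were DNAJB1 (0.426), WBP5 (0.424) and the nucleolin gene NCL (0.413). For FEN1 they were MED8 (0.423), HSPD1 (0.422) and IK (0.418).

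Of the 9 genes only UNG had a gene of the S phase list among its 3 closest. RPA1 was closest to EIF4G2 (0.434), RANBP1 (0.428) and CLTA (0.399), and RPA2 to CSNK2A1 (0.391), IFI30 (0.357) and GPN3 (0.351). RPA3 was closest to SFT2D1 (0.437), the ribosomal protein gene RPS13 (0.418) and BOLA3 (0.373), and RFC2 to C4orf48 (0.423), ATXN10 (0.370) and CYBA (0.353). For the summed share of the 9 genes the highest were RBBP4 (0.527), MCM2 (0.520), MCM6 (0.470), DNAJB1 (0.452) and GPX4 (0.436), and the lowest were RPL32 (-0.509), TMEM256 (-0.420) and RPL39P3 (-0.413). The highest of 2801 values is high in any case, so these are names of the closest genes and not a claim on any of them.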

How the data were processed

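UMI counts for 76 HEK293 cells were used as the authors deposited them, as whole numbers with no scaling. Per the submitters' processing notes the tools included STAR 2.4.0a and cutadapt 1.2.1, and the build was hg19, also called GRCh37. The UMI counter, annotation, strand use and cell filter were not given in the sources used here. A line named GENE, whose values equal the column numbers and which held 0.197% of the table's sum, was dropped, and 80 spike-in rows were kept apart. Columns were matched to cells by the number in the title, and 0 columns were unused. No doublet caller was run. A few genes that the naming rule would list are not reported here.

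Shares are percent of a cell's UMIs over gene rows. Cell totals ranged from 7305 to 43392. Intervals are exact Clopper-Pearson at 95%, a count of 0 is limited at 3 counts, and both cover counting error only. Thinning drew 10940 UMIs per cell without replacement, 20 times, and averaged the results over 71 cells. Dispersions and correlations were computed over all genes with a mean of at least 1 UMI. Scripts used Python 3.11.15, numpy 2.4.6, pandas 2.3.3 and scipy 1.17.1 and were tested on simulated data. Gene names and overlaps are from GENCODE 29, a GRCh38 annotation, used for names only. Named genes were all 9 members, the 3 members with most UMIs of each list, the 3 genes closest to each member, and for the summed share the 5 closest and 3 farthest; other partners and list genes were named after their values were seen. The 9 genes and the lists were chosen with earlier results of these data known, among them that USP1 and MSH6 go with S phase genes, so those give no independent support. Alternatives tried were other scales, thinning, depth and low-count filters, collision correction and single cells left out.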

Additional observations from a re-analysis of the deposited data

How the results depend on the processing

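Levels of all 9 genes and their sum moved by less than 1 SD over cells under size factors, spike-in scaling, pooled shares, collision correction (20736 tags) and without the 5 shallow cells. At 2 UMIs or more, 6 of 9 genes were still seen in at least 50% of the cells, and 7 of 9 when thinned. The median dispersion of the 9 genes, 2.21, was 1.56 thinned and 2.01 without each gene's highest cell, and the number above the highest spike-in was 1 thinned and 2 without that cell, in place of 5. In the setting without that cell the spike-ins kept all their cells. The share of all genes above the limit was not computed for either setting. With spike-in scaling a cell's RNA content enters every value: the mean pairwise rho was 0.302, the summed share had rho = 0.837 with the S phase genes, 0.414 with the G2 and M phase genes and 0.0568 with the histones, and 8 members reached 0.3 beside 57% of all genes. With size factors the G2 and M value was -0.0809. Given the ribosomal protein share, added after seeing the data, it was -0.417 and the histone value -0.0672. At a mean of at least 3 UMIs, 2 members reached 0.3 because UNG and MSH6 were filtered out. The share of all genes was not computed at that limit. Under every other setting the rho of the summed share with the S phase genes ran from 0.536 to 0.701, and 3 to 6 members reached 0.3. The share of all genes moved too. It was 1.97% beside 3 members given the ribosomal protein share and 2.19% beside 4 without abundant genes in the total. Beside 4 members given the cell total it was 3.66%. It was 6.46% beside 5 without the shallow cells and 8.43% beside 6 with size factors. The cause of the other changes was not tested. No paired analysis was possible because there is 1 group. Depth limits RPA1, MSH6 and RFC2, whose median is 1 UMI per cell.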
